A study of Mus musculus with 12 samples.

Results

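A2-type reactive astrocyte genes are a set of transcripts that name one of the described states of reactive astrocytes. The 10 genes followed here, out of 19505 named genes on the arrays, were Clcf1, Tgm1, Ptx3, S100a10, Sphk1, Cd109, Ptgs2, Emp1, Tm4sf1 and B3gnt5. They were taken by symbol, and each was measured by 1 transcript cluster. Their levels were read in cells that magnetic anti-GLAST beads had pulled from papain-dissociated brain white matter of C57BL/6 mice, GLAST being the astrocyte glutamate transporter (gene Slc1a3). Wild-type mice were sampled after 0, 3 or 12 weeks on powdered food with 0.2% (w/w) cuprizone, which chelates copper and leads to oligodendrocyte death and demyelination, and GnT-IX-deficient mice after 12 weeks. Feeding began at 8 to 12 weeks of age in the fed groups, and the same range is taken for the 0-week group, which was not fed cuprizone. Time on the diet and age at sampling therefore cannot be told apart. GnT-IX, encoded by Mgat5b, is a brain glycosyltransferase that branches O-mannosyl glycans (the labels do not say how its loss was engineered, nor whether mice were pooled). There were 4 groups of 3 arrays, each array from its own biological replicate.

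Astrocytes that meet injury or inflammation turn reactive: they enlarge, raise the filament protein GFAP and change what they secrete. In mice, genes induced mainly after arterial occlusion were named A2-type and genes induced mainly after bacterial lipopolysaccharide A1-type, while pan-reactive genes rose after either. The A2-type genes do not form a single pathway. They include a neurotrophic cytokine (Clcf1), a soluble pattern-recognition molecule (Ptx3), enzymes that crosslink proteins or make lipid mediators and glycolipids (Tgm1, Ptgs2, Sphk1, B3gnt5), and proteins of the cell surface or membrane cortex (S100a10, Emp1, Tm4sf1, Cd109). Clcf1 acts through the CNTF receptor and gp130, which activate STAT3, a transcription factor long tied to astrocyte reactivity.

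Because STAT and AP-1 factors act in reactive astrocytes, the 250 bases upstream of the annotated starts were searched for their motifs in the 7 members that RefSeq promoter windows of GRCm38.p6 covered (13 windows). Clcf1, S100a10 and Cd109 were not among them. The STAT search used the letters TTCNNNGAA, the NF-kappaB search GGANTTTCC and the CRE search TGACGTCA, each on both strands. The AP-1 letters were TGANTCA, and the TATA box was searched too. The windows of Tgm1, the member with the largest difference below, and of Emp1, the member whose array values went most closely with those of Tgm1, are shown with matches in capitals. Tgm1, which encodes transglutaminase 1, has a pair of windows, of which that of its upstream start, shown here, lies on the minus strand at chr14:55713493-55713742. Emp1, which encodes epithelial membrane protein 1, has the window of its upstream start on the plus strand at chr6:135362681-135362930.
Tgm1: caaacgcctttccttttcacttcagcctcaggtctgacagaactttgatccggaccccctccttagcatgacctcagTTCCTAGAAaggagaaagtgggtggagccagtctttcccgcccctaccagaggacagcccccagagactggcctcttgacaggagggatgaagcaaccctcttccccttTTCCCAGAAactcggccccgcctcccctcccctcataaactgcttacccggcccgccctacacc
Emp1: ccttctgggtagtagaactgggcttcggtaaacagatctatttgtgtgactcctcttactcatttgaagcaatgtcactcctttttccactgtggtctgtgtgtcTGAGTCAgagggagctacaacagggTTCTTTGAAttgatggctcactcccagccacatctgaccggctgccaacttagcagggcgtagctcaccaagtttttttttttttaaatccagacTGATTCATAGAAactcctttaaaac

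This Tgm1 window held 2 matches of the STAT letters, at bases -173 to -165 and -64 to -56 from the start, and the window of the other Tgm1 start held no match of any motif. This Emp1 window held 2 matches of the STAT letters, at -120 to -112 and -22 to -14, and 2 of the AP-1 letters, at -145 to -139 and -25 to -19, the last of which overlaps a STAT match, and the window of its other start held none. Sphk1 held 1 match of each, which a pair of overlapping windows of its several starts share. Among all 32851 such windows of the mouse annotation, 7.02% held the STAT letters and 6.75% the AP-1 letters. No member window held the NF-kappaB or CRE letters, which 1.07% and 1.55% of all windows held, and 1 window of Sphk1 held TATAAA, the letters of the TATA box, as did 12.4% of all windows. A match is a description of the letters, and no binding was measured here.

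Values are on the log2 scale, so a difference of 1 is a doubling. Array medians lay between 5.38 and 5.45. Mgat5b read 3.70, 4.19 and 4.06 in the GnT-IX-deficient arrays against 5.57 to 6.49 in the 9 wild-type arrays, so the genotype labels matched the targeted gene. Homeostatic astrocyte markers such as Aqp4 and Gja1 averaged 9.83 to 10.1 in the 0-week arrays, well above the medians, but so did mature oligodendrocyte markers (9.26 to 9.65). Slc1a3 itself, the gene of the selection target, fell by 1.35 at 3 weeks (SE 0.27, adjusted p = 0.0150) and was 1 of 9 among 15 homeostatic astrocyte markers that fell then, and their part in the member values was not tested. Microglia and macrophage markers, averaged over 14 genes, went from 5.17 to 5.77 in the 0-week arrays to 7.90 to 9.05 at 12 weeks. After 3 weeks they stood at 8.85 in replicate 1, well above 6.99 and 6.58 in replicates 2 and 3. Choroid plexus markers reached 8.44 and 7.45 in replicates 1 and 2 of the GnT-IX-deficient group, against at most 6.14 in wild-type arrays. Ependymal markers stood at 7.08, 8.36 and 7.83 in its replicates 1, 2 and 3, against at most 7.19 in wild-type arrays. In such mixed samples, fewer cells of a type and less RNA per cell cannot be told apart.

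No A2-type gene passed the threshold in any of the 4 comparisons, although several lay higher in cuprizone-fed mice. Tgm1, S100a10 and Clcf1 stood out at 3 weeks, at fold changes of 2.70, 2.29 and 1.92 over untreated mice, and Tgm1 and S100a10 lay 1.27 and 1.00 higher than at 0 weeks on the log2 scale after 12 weeks. Ptx3, Sphk1 and Cd109 hardly differed between wild-type groups. Genes were tested with limma over all 19505 named genes, and p-values were adjusted by the Benjamini-Hochberg method with a threshold of 0.05. Every adjusted p below comes from that fit, and the 95% intervals are those of single differences, not adjusted for the number of genes.

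**Figure D1:**
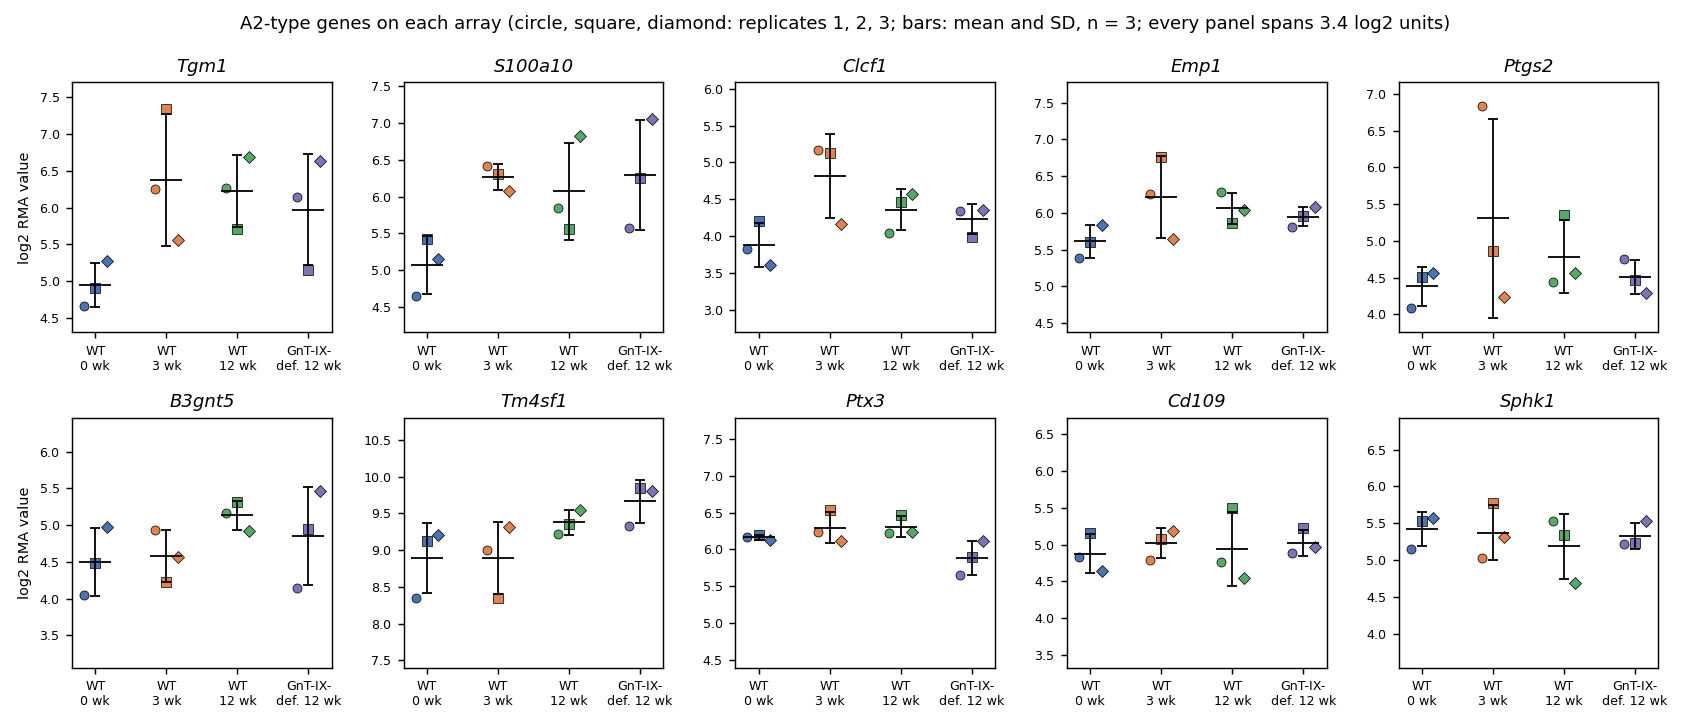
Log2 RMA value (y axis) of each of the 10 A2-type genes in wild-type (WT) mice after 0, 3 and 12 weeks of cuprizone and GnT-IX-deficient mice after 12 weeks. Symbols are single arrays, bars the mean and SD of 3 arrays. All wild-type 3-week and 12-week values of Tgm1 and S100a10 lie above the 0-week values, while those of Sphk1 and Cd109 overlap in every group.

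The question of the first comparison was what 3 weeks of cuprizone changed in wild-type cells, and none of the 10 members was called, against 3.24% of all genes. At an unadjusted p under 0.05, 4 members passed, all higher at 3 weeks (Clcf1, Emp1, S100a10 and Tgm1), where 8.81% of all genes passed in that direction. The groups of 3 arrays did not overlap for S100a10 and Tgm1, both higher, as for 10.8% of all genes. The median difference of the 10 members was 0.37, against -0.017 over all genes, and 8 of the 10 lay above 0.

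Tgm1, whose enzyme crosslinks proteins into stable sheets and is best known from the skin barrier, had 0-week values of 4.67, 4.91 and 5.27. After 3 weeks it read 6.25, 7.34 and 5.56. All 3 later arrays lay above all 3 earlier ones, but they spread widely, with replicate 2 highest and replicate 3 close to the untreated arrays. The difference was 1.43 (SE 0.41, 95% interval 0.56 to 2.31, adjusted p = 0.0756), and at this spread it would have needed 1.58 to pass. Of the 3-week arrays, leaving out replicate 2 gave 0.96 (adjusted p = 0.202) and leaving out replicate 3 gave 1.85 (adjusted p = 0.0326), within a range of 0.0326 to 0.237 over all alternatives.

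S100a10 encodes p11, an S100 protein that pairs with annexin A2, binds plasminogen at the cell surface and carries ion channels to it. It read 4.65, 5.42 and 5.15 at 0 weeks and 6.42, 6.31 and 6.08 at 3 weeks. Here the 3-week arrays were tight and the untreated ones wider, with a gap between the groups. The difference was 1.20 (SE 0.35, interval 0.45 to 1.94, adjusted p = 0.0817). With only the 6 arrays compared in the fit it passed (adjusted p = 0.0192, range 0.0192 to 0.279 over all alternatives).

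Clcf1, the cardiotrophin-like cytokine, was dim, at 3.82, 4.20 and 3.61 in untreated arrays. After 3 weeks it read 5.17 and 5.13 in replicates 1 and 2, but 4.16 in replicate 3, which fell among the untreated values. The difference of 0.94 (SE 0.26, interval 0.39 to 1.49) gave the smallest adjusted p of any member, 0.0606, and the size needed to pass was 0.99. It passed under cyclic loess normalization (adjusted p = 0.0496) and without replicate 3 of the 3-week group (difference 1.27, adjusted p = 0.00984), and its adjusted p reached 0.236 under other alternatives.

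Replicate 3 was thus the lowest 3-week array for Tgm1, S100a10 and Clcf1, and it was also the lowest for Emp1, Ptx3 and Ptgs2. Its microglial marker mean was the lowest of the 3 as well (6.58). Of these genes, S100a10, Clcf1 and Ptgs2 were highest in replicate 1, which had the highest microglial mean (8.85). Tgm1, Emp1 and Ptx3 were highest in replicate 2, whose microglial mean was 6.99. The part of other cell types in these values was not tested.

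Emp1, a tetraspan membrane protein that rises in many injured tissues, read 5.39, 5.61 and 5.84 at 0 weeks. At 3 weeks it read 6.25, 6.76 and 5.64. Replicate 3 overlapped the untreated arrays, and the difference of 0.60 (SE 0.24, interval 0.095 to 1.11) did not pass (adjusted p = 0.213). Without replicate 2, the highest, it was 0.33, and without replicate 3, the lowest, it was 0.89. Its adjusted p ranged from 0.0504 to 0.487 over all alternatives. Ptgs2, which encodes the inducible cyclooxygenase COX-2 of prostaglandin synthesis, showed 1 array far from the rest. It read 4.08, 4.51 and 4.56 at 0 weeks and 6.83, 4.86 and 4.23 at 3 weeks. The single high value belonged to replicate 1, the array with the highest microglial mean of its group. Its difference of 0.92 (SE 0.46, adjusted p = 0.349) went to 0.16 without that replicate and to 1.46 without replicate 3.

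The other 5 members lay within 0.15 of 0 at 3 weeks. Ptx3 then read 6.23, 6.53 and 6.12, Cd109 4.79, 5.08 and 5.18, and Sphk1 5.03, 5.78 and 5.31, each overlapping its untreated arrays, which are given with the 12-week values. B3gnt5, which extends glycolipids of the lacto series, differed by 0.080 (interval -0.56 to 0.72). Tm4sf1, a tetraspan-like protein abundant in endothelium, differed by -0.0067 (interval -0.57 to 0.56), and Ptx3, the long pentraxin that binds microbes and complement, by 0.13 (interval -0.24 to 0.50). Cd109, a membrane-anchored protein that binds TGF-beta, differed by 0.14 (interval -0.35 to 0.63). Sphk1, which makes sphingosine 1-phosphate, differed by -0.043 (interval -0.55 to 0.46). The intervals of these 5 reach from -0.57 to 0.72, so a doubling or halving lay outside each of them.

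**Figure D2:**
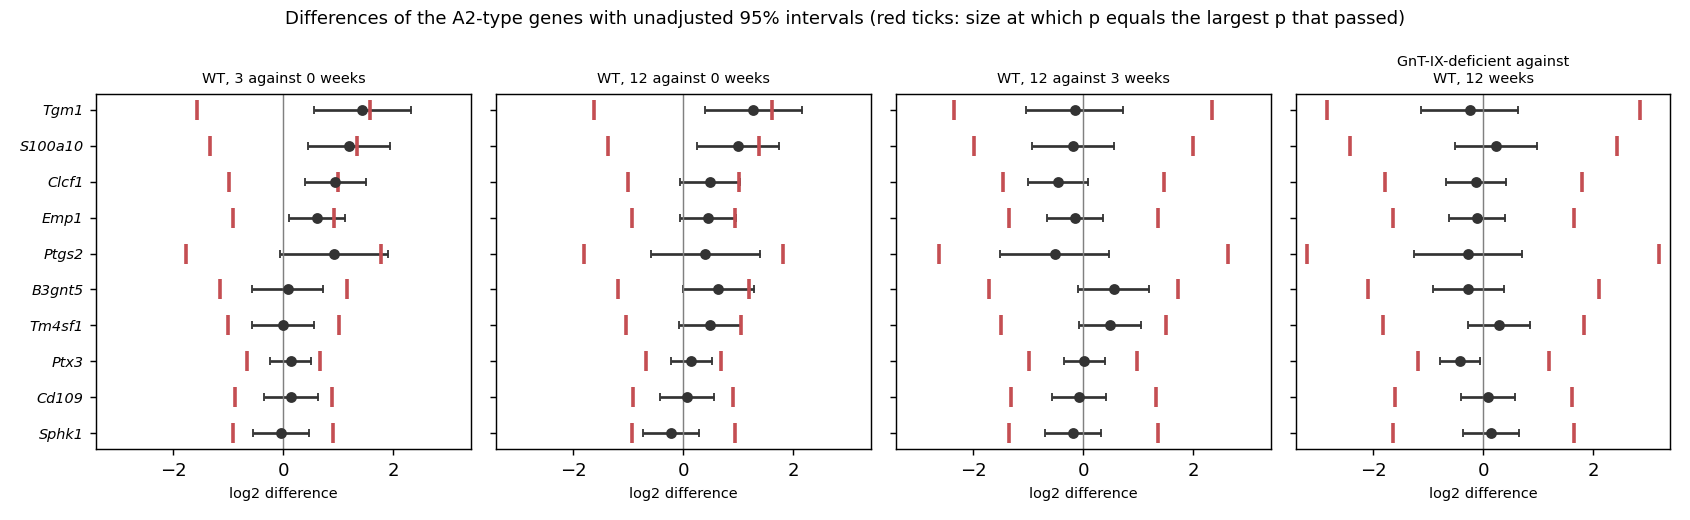
Log2 difference (x axis) of each A2-type gene in the 4 comparisons, with the unadjusted 95% interval. Red ticks mark the difference at which the gene's p would equal the largest p that passed in that comparison. Clcf1, Tgm1 and S100a10 come closest to their ticks, at 3 against 0 weeks.

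After 12 weeks against 0 weeks in wild-type cells, again no member was called, against 2.64% of all genes. At an unadjusted p under 0.05, S100a10 and Tgm1 passed, both higher, where 8.21% of all genes passed in that direction. The arrays did not overlap for 5 members, all higher at 12 weeks (Emp1, Ptx3, S100a10, Tgm1 and Tm4sf1), as for 10.8% of all genes. The median difference of the members was 0.46, against -0.013 over all genes, and 9 of 10 lay above 0. The untreated arrays are the same as in the first comparison, so the values at the later time are not an independent repeat.

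Tgm1 read 6.27, 5.71 and 6.69 at 12 weeks, all above the untreated arrays and within the range of the 3-week arrays. The difference was 1.27 (SE 0.41, interval 0.40 to 2.15, adjusted p = 0.134). With only the 6 arrays compared it passed (adjusted p = 0.0169, range 0.0169 to 0.362 over all alternatives). S100a10 read 5.84, 5.56 and 6.82, a wider group than at 3 weeks, led by replicate 3. Its difference was 1.00 (SE 0.35, interval 0.25 to 1.75, adjusted p = 0.172), and 0.63 without that replicate. Clcf1 read 4.04, 4.46 and 4.57, lower than the high 3-week arrays and overlapping the untreated ones, with a difference of 0.48 (SE 0.26, adjusted p = 0.416).

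B3gnt5 read 4.05, 4.48 and 4.97 at 0 weeks, 4.94, 4.23 and 4.57 at 3 weeks, and 5.17, 5.31 and 4.92 at 12 weeks. Of the groups, the 12-week arrays were highest, but the lowest of them lay under the highest untreated array, and the difference was 0.63 (SE 0.30, adjusted p = 0.342), or 0.41 without replicate 1 of the 0-week group. Tm4sf1 read 8.35, 9.13 and 9.20 at 0 weeks, 9.0, 8.35 and 9.31 at 3 weeks, and 9.22, 9.36 and 9.55 at 12 weeks. The 12-week arrays only just cleared the untreated ones, and the difference was 0.48 (SE 0.26, adjusted p = 0.427), or 0.21 without replicate 1 of the 0-week group, the low one. Endothelial marker means were 5.82 to 6.06 at 0 weeks and 5.82 to 6.76 at 3 weeks, where Tm4sf1 was level. At 12 weeks they were 6.70 to 7.16, when 4 of 12 markers rose. Replicate 1 of the 0-week, wild-type 12-week and GnT-IX-deficient groups had the highest endothelial mean of its group but the lowest Tm4sf1 value. At 3 weeks replicate 2 was lowest for both. The part of endothelial cells in the Tm4sf1 values was not tested.

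Emp1 read 6.28, 5.86 and 6.04 at 12 weeks, narrowly above the untreated arrays, for a difference of 0.45 (SE 0.24, adjusted p = 0.413). Ptx3 had the narrowest untreated group of all members, at 6.17, 6.19 and 6.13, and read 6.22, 6.47 and 6.24 at 12 weeks. Its difference of 0.15 (SE 0.17, adjusted p = 0.766) was small although the groups did not overlap. Ptgs2 read 4.44, 5.35 and 4.56, with replicate 2 highest, which also had the highest microglial mean of the group (9.05). Its difference was 0.40 (SE 0.46, adjusted p = 0.763), but 0.12 without that replicate and 0.25 without replicate 1 of the 0-week group. In the GnT-IX-deficient group, Ptgs2 was instead highest in replicate 1 (4.75), which had the lowest microglial mean of that group (7.31). The part of microglia in the Ptgs2 values was not tested. Cd109 read 4.83, 5.16 and 4.64 at 0 weeks and 4.77, 5.50 and 4.55 at 12 weeks, and Sphk1 5.15, 5.53 and 5.57 against 5.53, 5.34 and 4.69, with full overlap. Sphk1 was the 1 member below 0, at -0.23 (SE 0.24, adjusted p = 0.724).

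The direct test of 12 against 3 weeks, which asked whether the longer diet changed what the shorter one had set, called no member, and 0.082% of all genes. No member reached an unadjusted p under 0.05, which 11.4% of all genes did, and none had groups of arrays that did not overlap, as 15.9% of all genes had. B3gnt5 (0.55, SE 0.30, adjusted p = 0.515) and Tm4sf1 (0.49, SE 0.26, adjusted p = 0.508) lay higher at 12 weeks. Ptgs2 (-0.52, SE 0.46) and Clcf1 (-0.46, SE 0.26, adjusted p = 0.526) lay lower, and the Ptgs2 difference went to 0.24 without replicate 1 of the 3-week group, -1.06 without its replicate 3 and -0.81 without replicate 2 of the 12-week group. Without replicate 2 of the 3-week group the Tm4sf1 difference was 0.22. The Clcf1 difference was -0.29, -0.31 and -0.79 without replicates 1, 2 and 3 of the 3-week group, and -0.30 without replicate 1 of the 12-week group. Tgm1 (-0.16, interval -1.04 to 0.72) and S100a10 (-0.20, interval -0.94 to 0.55) lay closer to 0.

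The fourth comparison set GnT-IX-deficient against wild-type cells after 12 weeks of cuprizone. No untreated GnT-IX-deficient mice were sampled, so a difference present before the diet and a changed response to it cannot be told apart. No member was called, against 0.0256% of all genes, and the median difference of the members was -0.12 beside -0.013 over all genes. Ptx3 was the 1 member with an unadjusted p under 0.05, and it lay lower, as did 3.34% of all genes. It read 5.65, 5.89 and 6.11 in GnT-IX-deficient arrays, all below the wild-type arrays of the same time. They also lay below every other wild-type array, but only just, the lowest of those being 6.12 at 3 weeks. The difference was -0.43 (SE 0.17, interval -0.79 to -0.060, adjusted p = 0.650, range 0.496 to 0.934 over all alternatives). Of all genes, 5.57% likewise had GnT-IX-deficient arrays all below the wild-type 12-week arrays, and no share was taken against all wild-type arrays. Ptx3 was lowest in replicates 1 and 2, the arrays with the highest choroid plexus means, and the part of those cells was not tested.

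Tgm1 read 6.14, 5.15 and 6.63 and S100a10 5.57, 6.26 and 7.06 in the GnT-IX-deficient arrays. Replicate 3 was the highest for both, and replicate 2 of Tgm1 lay among the untreated wild-type arrays. Their differences from wild-type were -0.25 (SE 0.41, adjusted p = 0.922) and 0.22 (SE 0.35, adjusted p = 0.917). Tm4sf1 reached its highest levels here, at 9.33, 9.85 and 9.81, for a difference of 0.29 (SE 0.26, adjusted p = 0.844). B3gnt5 spread widely, at 4.15, 4.95 and 5.47, with a mean of 4.86 ± 0.66 (SD, n = 3) whose SD took in the means of all wild-type groups. Emp1 (5.81, 5.96 and 6.08), Clcf1 (4.34, 3.99 and 4.35) and Ptgs2 (4.75, 4.47 and 4.29) had group means at most 0.28 from the wild-type 12-week means. Cd109 (4.88, 5.22 and 4.97) and Sphk1 (5.22, 5.23 and 5.53) overlapped the wild-type 12-week arrays.

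The A2-type genes can be set beside the other reactive astrocyte lists. Of 13 pan-reactive genes, 3 rose at 3 weeks, with a list median of 0.63, and 4 rose at 12 weeks, with a median of 0.89. They were Serpina3n (2.95 and 2.75), a protease inhibitor of reactive glia, Gfap (1.97 and 2.28), the hyaluronan receptor gene Cd44 at 3 weeks (1.99), and, at 12 weeks, Hspb1 (1.15), of a small heat shock protein, and Cp (1.02), of the copper-carrying ferroxidase ceruloplasmin. Of 10 measured A1-type genes, H2-T23 rose at 3 weeks (1.06, adjusted p = 0.0124) and at 12 weeks (1.63, adjusted p = 0.00122), and Psmb8, an immunoproteasome subunit gene, at 12 weeks (1.60, adjusted p = 0.0385). The A1-type medians were 0.34 and 0.42, close to the 0.37 and 0.46 of the A2-type genes. Beside these list counts and those below, 3.24% of all genes were called at 3 weeks and 2.64% at 12 weeks, in either direction. The lists were chosen with earlier results of these data known, and whether they differ from each other was not tested.

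**Figure D3:**
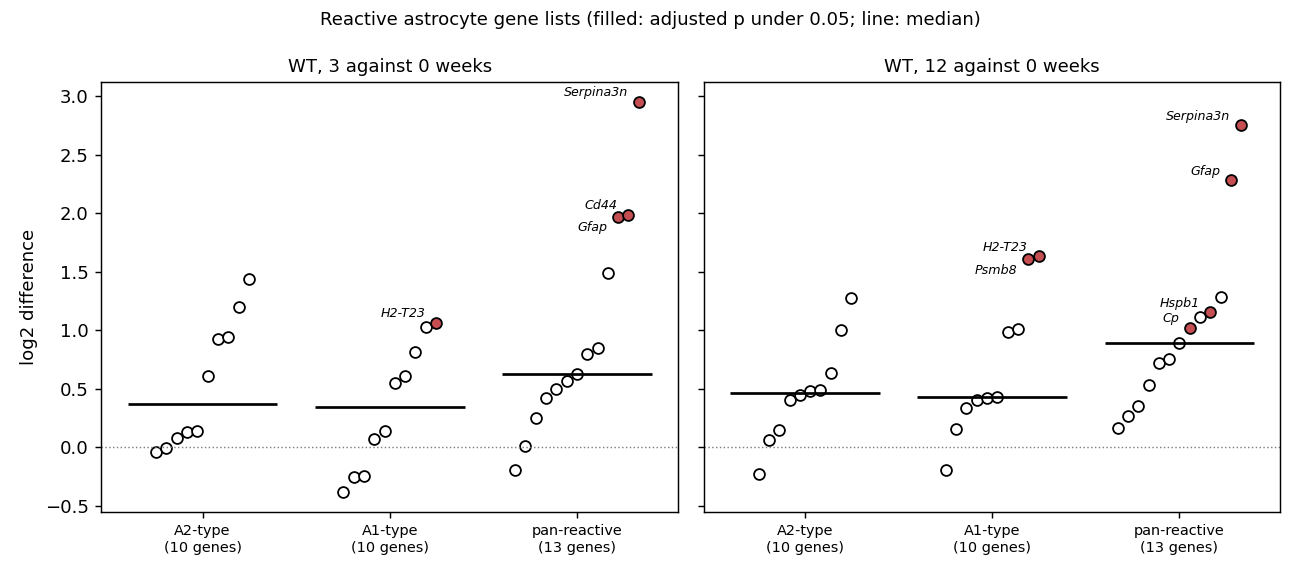
Log2 difference (y axis) of every measured A2-type, A1-type and pan-reactive gene in wild-type mice after 3 and 12 weeks against 0 weeks. Filled points passed the threshold and lines are list medians. No A2-type gene is filled, while 3 pan-reactive genes are at 3 weeks and 4 at 12 weeks.

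Lists of A2-type genes often also hold Cd14 and Slc10a6, which are not among the 10. Cd14, the lipopolysaccharide co-receptor best known from monocytes and microglia, read 3.86, 4.31 and 3.77 at 0 weeks, 7.92, 6.16 and 5.58 at 3 weeks, and 7.43, 8.58 and 7.66 at 12 weeks. It rose by 2.57 (SE 0.48, adjusted p = 0.00966) and by 3.91 (SE 0.48, adjusted p = 0.00109). Within each fed group its highest array was the one with the highest microglial mean, in the wild-type and the GnT-IX-deficient group alike, and the share of microglia in its rise was not tested. Slc10a6, a steroid sulfate transporter gene, stayed between 3.33 and 4.20 on every array, near the lower quartile of the arrays (3.73 to 3.85).

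**Figure D4:**
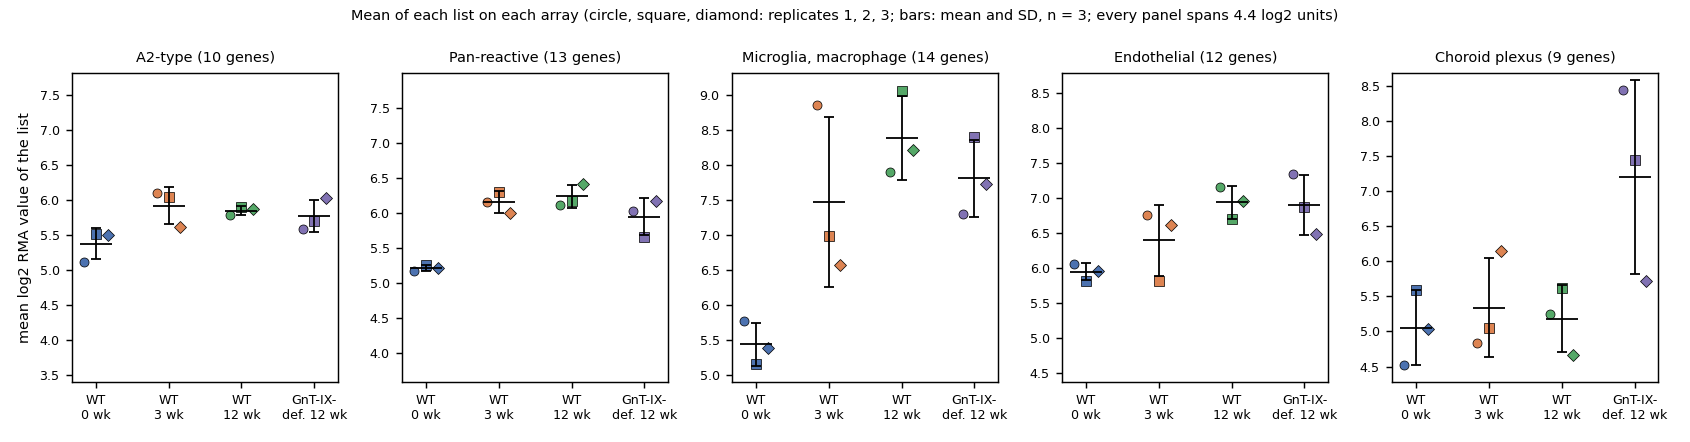
Mean log2 RMA value (y axis) of the A2-type genes, pan-reactive genes and markers of microglia and macrophages, endothelium and choroid plexus on each array, by group. Symbols are arrays, bars the mean and SD of 3 arrays. In wild-type arrays the A2-type mean is 5.12 to 5.51 at 0 weeks, 5.62 to 6.09 at 3 weeks and 5.78 to 5.89 at 12 weeks. The microglial mean is 5.17 to 5.77, then 6.58 to 8.85, then 7.90 to 9.05, a larger step from 0 to 12 weeks.

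Genes of the members' pathways were read beside them. The part of microglia and other cell types in the values of these pathway genes was not tested. Around Clcf1, of 14 measured genes of CNTF and gp130 signalling, Cntfr, the receptor subunit through which Clcf1 signals, fell at 3 weeks. It read 11.27, 10.74 and 10.75 at 0 weeks and 9.79, 10.22 and 9.81 at 3 weeks, a difference of -0.98 (SE 0.21, adjusted p = 0.0223). Il6ra, an interleukin-6 receptor subunit gene, rose at 12 weeks by 1.80 (adjusted p = 0.0146). Stat3 lay 0.53 higher at 3 weeks without passing (adjusted p = 0.154), and its feedback inhibitor Socs3 was level (-0.057). The list medians were 0.060 at 3 weeks and -0.015 at 12 weeks.

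Around Ptgs2, of 15 prostaglandin genes, Hpgd, whose enzyme degrades prostaglandins, showed the largest rise. It read 4.83, 4.48 and 4.90 at 0 weeks, 8.28, 6.61 and 6.75 at 3 weeks, and 7.42, 8.62 and 7.47 at 12 weeks. It rose by 2.48 (SE 0.42, adjusted p = 0.00551) and by 3.10 (SE 0.42, adjusted p = 0.00161), and like Cd14 it was highest in the wild-type arrays with the highest microglial means. Ptgds, the prostaglandin D2 synthase gene of glia and meninges, fell by 1.22 at 3 weeks (adjusted p = 0.0278). At 12 weeks Hpgds (1.99), Tbxas1 (2.01) and the prostaglandin E2 receptor gene Ptger4 (0.93) rose as well. Of 14 microglia and macrophage markers, 12 rose then too, and their part in these values was not tested. The list medians were -0.037 and 0.033.

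Around Sphk1, of 15 genes of sphingosine 1-phosphate metabolism and its receptors, S1pr1, the receptor gene most typical of astrocytes and endothelium, fell at 3 weeks by 1.26 (SE 0.22, adjusted p = 0.00587). It read 10.69, 10.53 and 10.35 at 0 weeks and 9.71, 8.94 and 9.14 at 3 weeks. S1pr5, the receptor gene of oligodendrocytes, fell at 12 weeks by 1.05 (adjusted p = 0.0132), where mature oligodendrocyte markers had a median of -0.82 with 1 of 10 called. Around B3gnt5, of 18 glycolipid genes, B3galt1 (-1.03), St3gal4 (-0.95) and Fut9 (-0.82) fell at 3 weeks, and St3gal6 rose at 12 weeks (1.12).

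Around S100a10, of 14 genes of the plasminogen system and its S100 and annexin partners, Plaur, the urokinase receptor gene, rose by 1.51 at 3 weeks (adjusted p = 0.0484) and by 2.15 at 12 weeks (adjusted p = 0.00977). Like Cd14, it was highest in the array with the highest microglial mean of each fed group (6.91 at 3 weeks, 7.16 at 12 weeks and 6.18 in GnT-IX-deficient mice), and the part of microglia was not tested. Plgrkt, a plasminogen receptor gene, rose by 0.79 at 12 weeks. Anxa2, the binding partner of p11, lay 0.50 higher at 3 weeks and 0.53 higher at 12 weeks, with arrays that did not overlap the untreated ones, but did not pass (adjusted p = 0.431 and 0.430). Among relatives of the members, A2m, of the same protein family as Cd109, rose by 1.28 and 1.26, and Emp3, a relative of Emp1, by 1.11 at 12 weeks. Of 12 TGF-beta genes around Cd109, Tgfb1 (1.64), Skil (1.42) and Tgfbr2 (1.04) rose at 12 weeks. In the comparisons of 12 with 3 weeks and of the genotypes, none of these pathway lists had a gene past the threshold.

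The members did not move as a block across the 12 arrays. As a description over arrays that share groups and normalization, Emp1 and Tgm1 had the highest correlation of any pair of members (Pearson r = 0.85, n = 12), followed by Tgm1 with Clcf1 (0.73) and Tgm1 with S100a10 (0.72). The lowest was between Tm4sf1 and Ptx3 (-0.45). Over all genes, the nearest profiles to Tgm1 were those of Ap1s2 (r = 0.94), the pan-reactive gene Lcn2 (0.91) and Usp7 (0.89). Lcn2, the lipocalin of reactive astrocytes and neutrophils, lay 1.49 higher at 3 weeks without passing (adjusted p = 0.0623). The nearest to S100a10 were Dbi (0.94), 9130401M01Rik (0.94) and Cyb5r2 (0.92), and to Clcf1 Nolc1 (0.89), Phf23 (0.88) and Cyb5r4 (0.86).

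For the other members the single nearest gene was Eomes for Emp1 (0.94), Oas1a for Ptgs2 (0.95), Nudt14 for Tm4sf1 (0.96), Cenpi for B3gnt5 (0.90), Arhgap17 for Ptx3 (0.89), Nmbr for Sphk1 (0.91) and Mrps2 for Cd109 (0.88). All nearest genes, those of Tgm1, S100a10 and Clcf1 included, were picked as the highest r over all genes on 12 arrays. How high the best of as many unrelated profiles would reach was not tested, so no link is drawn from them. Ptgs2 read 6.83 in replicate 1 of the 3-week group and at most 5.35 on any other array. The part of that array in its r was not tested.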

How the data were processed

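Sample titles gave each array's group and replicate number. The values deposited by the authors are log2 RMA values from Affymetrix Expression Console 1.4, per the submitters' processing notes. RMA equalizes the distributions of arrays and shrinks differences of dim genes. Either of a pair of kits served for RNA, per the labels' protocols, which do not say which sample had which, so kit and group cannot be told apart. For the arrays, the sources used here name no genome build.

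The table held 22206 transcript clusters, of which 19572 had 1 symbol in the platform annotation, all matched by Entrez identifier to RefSeq (GRCm38.p6), and 2634 are unnamed here. The brightest cluster stood for each of 55 genes with several, which left 19505 genes. They were fitted in R 4.3.3 with limma 3.58.1 (eBayes after lmFit, 1 mean per group, 12 arrays, 8 residual degrees of freedom, two-sided), a procedure tested on simulated data. SE values come from that fit. The number of arrays limits the precision. Genes named beside the members were up to 4 per pathway list and comparison past the threshold, smallest p first, and the 3 nearest profiles of each member. Anxa2, Stat3, Socs3, Lcn2 and Slc10a6 were added after their values were seen. The members and lists were chosen with earlier results of these data known. Alternatives were median centring, cyclic loess, leaving out the dimmest 30% of genes, averaging clusters, a trended robust variance, array weights, fitting only the 6 arrays compared, a replicate block, and each array left out. Matplotlib 3.10.9 drew the figures.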

Additional observations from a re-analysis of the deposited data

How the results depend on the processing

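No member passed the threshold under median centring, the filter on dim genes, the mean of clusters, trend and robust variance, array weights or the replicate block in any comparison. Of the 10 members, 1 was called for 3 against 0 weeks under cyclic loess (Clcf1) and 1 with only the 6 arrays compared (S100a10), and 1 for 12 against 0 weeks with only those arrays (Tgm1). The number called for 3 against 0 weeks was 0 to 2 when single arrays were left out, the 2 being Clcf1 and Tgm1 without replicate 3 of the 3-week group. With fewer arrays in a fit the estimate of spread changes too, and the cause of these calls was not tested.

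Counts over all genes moved more. For 3 against 0 weeks 632 genes were called, and 192 to 643 with single arrays left out, with 192, 244 and 360 without replicates 1, 2 and 3 of the 0-week group and 270 and 385 without replicates 1 and 3 of the 3-week group. For 12 against 0 weeks 514 were called, 919 with array weights, and 77 to 504 with single arrays left out, with 144 and 105 without replicates 1 and 2 of the 0-week group and 77 and 276 without replicates 2 and 3 of the 12-week group. For 12 against 3 weeks 16 were called, 9 without the dimmest 30% of genes, 30 with trend and robust variance, 33 with array weights, 9 with only the 6 arrays compared, and 0 to 146 with single arrays left out. The 146 were called without replicate 1 of the 3-week group, 4 and 0 without its replicates 2 and 3, and 2 and 1 without replicates 2 and 3 of the 12-week group. For the genotypes 5 were called, and 3 to 49 with single arrays left out, with 3 without replicate 3 of the wild-type group and 9 and 49 without replicates 1 and 3 of the GnT-IX-deficient group.

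No member difference that crossed 0 had passed the threshold. Under array weights the Tm4sf1 difference for 3 against 0 weeks was 0.067. Others crossed 0 with single arrays left out, and their range over those fits follows. For 3 against 0 weeks, these were B3gnt5 (-0.14 to 0.32), Sphk1 (-0.25 to 0.13) and Tm4sf1 (-0.28 to 0.26). For 12 against 0 weeks, these were Cd109 (-0.22 to 0.26) and Sphk1 (-0.40 to 0.018). For 12 against 3 weeks, these were Ptx3 (-0.07 to 0.14), Ptgs2 (-1.06 to 0.24), Tgm1 (-0.57 to 0.32), Sphk1 (-0.36 to 0.062), Emp1 (-0.45 to 0.12), Cd109 (-0.36 to 0.12) and S100a10 (-0.57 to 0.06). For the genotypes, these were Cd109 (-0.11 to 0.36), S100a10 (-0.16 to 0.60), Ptgs2 (-0.45 to 0.0033), Sphk1 (-0.11 to 0.31), B3gnt5 (-0.58 to 0.077) and Tgm1 (-0.58 to 0.16). The replicate numbers are not taken as pairs, because the labels name biological replicates and no pairing. Same-numbered replicates had deviations from their group means that correlated between -0.279 and 0.216. Differently numbered arrays were not compared for reference, so this range cannot decide whether pairs exist. With the replicate block 543, 442, 15 and 5 genes and no member were called in the 4 comparisons. No detection calls were used, so how far the dim members, Clcf1 above all, stood over background is not known here.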
